A study of Mus musculus with 7 samples.

Results

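The genes described here are the 81 protein-coding genes whose symbols name a heat shock protein (Hspa, Hspb, Hsph, Hsp90, Hspd1, Hspe1), a J-domain protein (Dnaja, Dnajb, Dnajc), a protein disulfide isomerase (Pdia, P4hb) or one of the ER chaperones Calr, Canx and Hyou1, out of 55487 genes in the table of counts. They were sorted by where the protein is known to work into 46 cytosolic or nuclear, 8 mitochondrial and 23 endoplasmic reticulum (ER) members, and 4 (Hspb11, Dnajc4, Dnajc22, Dnajc28) were left unassigned. RNA was sequenced from inguinal white adipose tissue, a fat depot under the skin of the groin, of NOD/ShiLtJ mice, a strain in which the immune system destroys the insulin-producing islet cells. All mice had a blood glucose of 190 to 230 mg/dL before 7 days of subcutaneous injections, and tissue was taken 2 to 8 weeks after injection, with the week of each library not stated. The 3 sham libraries came from mice given KRBH buffer, and the 4 imBAT libraries from mice given 1.5 mg/kg body weight of the fraction above 100 kDa of buffer conditioned by brown adipocytes. The labels do not state sex or age, nor whether each library came from its own mouse. The p-values therefore rest on the spread among 7 libraries, some of which may be technical.

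Chaperones bind proteins that are not yet folded or have lost their fold. HSP70 proteins clamp a client in cycles of ATP hydrolysis that J-domain proteins start, HSP90 proteins take over late steps for kinases and receptors, and small heat shock proteins hold clients without using ATP. The ER has its own set, the HSP70 BiP (Hspa5), the HSP90 GRP94 (Hsp90b1), the sugar-binding chaperones calnexin and calreticulin and the disulfide isomerases, which fold secreted and membrane proteins such as collagens and adipokines. Mitochondria import most of their proteins unfolded and refold them with mortalin (Hspa9) and the chamber formed by Hspd1 and Hspe1.

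The groups differed widely in markers of cell types. In bulk tissue fewer cells of a type and less RNA per cell cannot be told apart. Total counts ranged from 41025786 to 44983250 in sham and from 43360208 to 63650016 in imBAT. All 12 adipocyte markers were called higher in imBAT, with a summed level of 2345 to 4857 CPM in sham and 13779 to 31774 CPM in imBAT, and all 7 fibroblast and progenitor markers (720.3 to 1066 CPM in sham and 5046 to 9876 CPM in imBAT). All 8 T cell markers (910.3 to 1142 CPM in sham and 153 to 476 CPM in imBAT) and all 8 B cell markers (1546 to 1856 CPM in sham and 246 to 661 CPM in imBAT) were called lower, and none of these 35 markers stood at 0 in any library. Levels are in CPM, counts scaled to the library total after TMM normalization. Called means an adjusted p under 0.05 in edgeR's quasi-likelihood F test with Benjamini-Hochberg adjustment over the 26393 genes tested, of which 43.5% were called, 24.3% higher and 19.3% lower in imBAT. The part of these cell markers in each chaperone result was not tested. Sham replicate 1 stood apart from the other sham libraries in several heat shock genes, and values without it are given beside the results it touches.

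The naming rule did not use promoter sequence, but the elements searched were chosen as known elements of stress and chaperone genes. Their presence in members is therefore a description, not a test. RefSeq windows (GRCm38.p6, 250 bases before to 50 after each start) were found for 66 of the 81 members and were searched on both strands. The ER stress response element, CCAAT followed after 9 bases by CCACG, to which the factors ATF6 and NF-Y bind, was present in 6 of 20 ER members (30.0%), in none of 38 cytosolic or 5 mitochondrial members, and in 37 of 27025 genes with a window (0.14%). The matched stretches before the RefSeq start are shown because, of the members searched, only ER members held the element. The GENCODE M21 annotation starts Hspa5 at 34771970, upstream of its stretch, which lies over an exon there. Capitals mark the element, which reads in reverse in Calr and in the second site of Hsp90b1.
Hspa5 (chr2:34772022-34772046, plus strand): tcaCCAATCGGAGGCCTCCACGacg
Hsp90b1 first site (chr10:86705618-86705676, minus strand): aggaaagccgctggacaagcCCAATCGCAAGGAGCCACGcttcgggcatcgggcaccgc
Hsp90b1 second site (chr10:86705513-86705571, minus strand): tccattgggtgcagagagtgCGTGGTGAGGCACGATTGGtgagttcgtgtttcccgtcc
Calr (chr8:84847055-84847113, minus strand): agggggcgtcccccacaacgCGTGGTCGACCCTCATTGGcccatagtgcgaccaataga
Canx (chr11:50325780-50325838, minus strand): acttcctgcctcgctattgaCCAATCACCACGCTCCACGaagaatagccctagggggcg
Pdia6 (chr12:17266471-17266529, plus strand): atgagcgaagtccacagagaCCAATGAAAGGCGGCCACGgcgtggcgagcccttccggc
Dnajc3 (chr14:118937807-118937865, plus strand): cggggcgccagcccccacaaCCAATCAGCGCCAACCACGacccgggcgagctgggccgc

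A heat shock element of 3 units (GAA, TTC and GAA, each 2 bases apart) was present in 4 members, Hspd1, Hspe1, Hsph1 and Dnajb6, and in 179 of the 27025 genes (0.66%). Hspd1 and Hspe1 lie head to head on chromosome 1, and both windows hold the same pair of overlapping matches. That stretch is shown because the genes share it; capitals mark the overlapping elements, read in the direction of Hspe1.
Hspe1 (chr1:55088056-55088079, plus strand): ccgTTCTAGAACCTTCCGGAAggc
The ER stress response element II, ATTGG and CCACG with 1 base between, was present in Dnajb11 alone of the members, and in 12 of the 27025 genes. The unfolded protein response element, TGACGTGG, was present in Dnajc25 alone of the members, and in 193 genes. A match is a description of letters, not a bound site. Hspa1a, Hspa1b, Hspb1 and Dnajb1 are classical heat shock genes, and the strict element searched here was not in a window of theirs.

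Of the 81 members, 78 passed the expression filter, and 31 of these were called higher and 4 lower in imBAT (edgeR adjusted p under 0.05), against 24.3% higher and 19.3% lower over all genes tested. Among protein-coding genes tested the shares were 34.2% and 19.7%. The median log2 fold change was 0.30 over the tested members, -0.01 over all genes tested and 0.15 over protein-coding genes. The mitochondrial members had the highest median, 0.68, with 5 of 8 higher and 0 lower. ER members had a median of 0.35, with 10 of 23 higher and 0 lower, and their log2 fold changes ran only from -0.50 to 0.88. Cytosolic members had a median of 0.25 and the widest range, -1.12 to 2.74, with 14 of 43 higher and 4 lower. Of the unassigned members, Dnajc4 (1.84-fold) and Dnajc28 (1.89-fold) were higher. Changes of at least 1 on the log2 scale were called in 10 members, all higher (14.3% of all genes tested were higher and 8.84% lower by that much), of which 9 were cytosolic, 1 was mitochondrial and 0 were in the ER. The groups did not overlap for 43 of the 78 tested members, 37 higher and 6 lower in imBAT, against 52% of all genes tested. Of the 16106 protein-coding genes tested, 5945 were separated higher and 4007 lower. No ER or mitochondrial member was called lower by edgeR, DESeq2 or voom, and 0 had a lower value at an unadjusted edgeR p under 0.05.

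**Figure D1:**
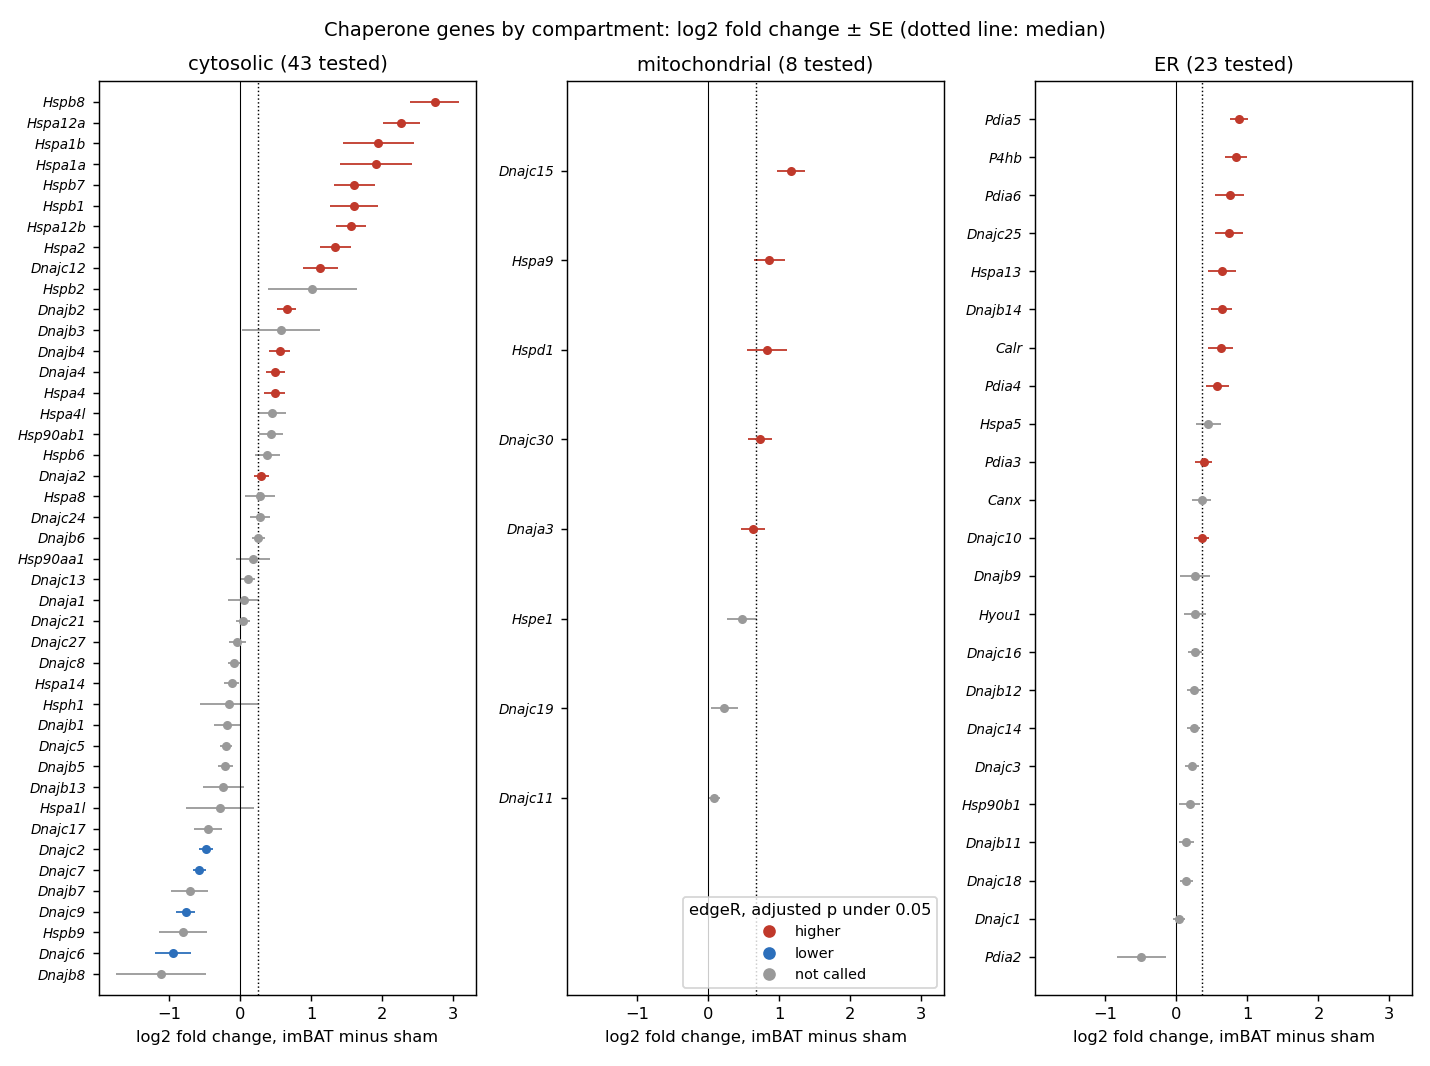
Each point is a tested member's log2 fold change (imBAT minus sham, 4 against 3 libraries) with its SE as a bar, in panels for cytosolic, mitochondrial and ER members; red and blue mark calls and the dotted line is the panel's median. Cytosolic genes spread from -1.12 to 2.74, while ER genes stay between -0.50 and 0.88.

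The counts of calls rested partly on scaling and on the sham libraries. Upper-quartile scaling lowered the median of all genes from -0.01 to -0.25 and that of the members to 0.06, and its calls were 19 higher and 11 lower (63.3% of calls higher in place of 88.6%). Without sham replicate 2 or 3 the calls were 17 and 15 higher with 4 lower each, and without sham replicate 1 they were 34 higher and 4 lower. That scaling shifted the genes nearly alike, so it could not change the order of the compartments. Without sham replicate 2 the cytosolic median was 0.117, and without imBAT replicate 3 the medians were 0.169 for cytosolic, 0.223 for ER and 0.458 for mitochondrial members.

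Among ER members, the protein disulfide isomerases, which form and rearrange disulfide bonds, were called higher in 5 of 6 cases, with a median log2 fold change of 0.66. P4hb, which is also the beta subunit of the collagen prolyl hydroxylase, stood at 205, 165 and 161 CPM in sham replicates 1 to 3 and at 358, 265, 359 and 287 CPM in imBAT replicates 1 to 4. Every imBAT library lay above every sham library, and P4hb rose by 0.84 ± 0.15 (SE, adjusted p = 0.00356) on the log2 scale. Pdia5 was low with little spread between libraries, at 6.59, 6.65 and 6.23 CPM in sham and 12.1, 11.5, 12.3 and 11.8 CPM in imBAT, a rise of 0.88 ± 0.13 (SE, adjusted p = 0.00184). Pdia6, which also acts on the stress sensor IRE1, stood at 114, 66.0 and 80.9 CPM and 159.5, 135, 171 and 118 CPM, with sham replicate 1 close to the lowest imBAT library. It rose by 0.75 ± 0.20 (SE, adjusted p = 0.0175). Pdia4 lay at 71.3 to 108 CPM in sham and 111 to 147 CPM in imBAT (1.49-fold, adjusted p = 0.0201). Pdia3, the partner of calnexin and calreticulin that also loads MHC class I, had 177 ± 17.05 CPM in sham and 231 ± 24.8 CPM in imBAT (SD, n = 3 and 4; 1.31-fold, adjusted p = 0.0292). The pancreatic form Pdia2, at 1.08 to 2.43 CPM in sham and 0.836 to 1.77 CPM in imBAT, was not called (log2 fold change -0.50, adjusted p = 0.270).

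Of the sugar-binding chaperones, calreticulin (Calr), which also buffers ER calcium, stood at 336, 258 and 284 CPM in sham replicates 1 to 3 and 510.5, 407, 541 and 344 CPM in imBAT replicates 1 to 4. The groups did not overlap, though sham replicate 1 and imBAT replicate 4 were close, and Calr rose by 0.62 ± 0.18 (SE, adjusted p = 0.0213). Its membrane-bound relative calnexin (Canx) had 237, 221 and 226 CPM in sham and 317, 244, 339 and 266 CPM in imBAT. These groups did not overlap either, but the difference of 0.35 ± 0.13 missed the threshold (adjusted p = 0.0550; DESeq2 gave 0.0468 and voom 0.0144). Without imBAT replicate 3 the difference was 0.22 (adjusted p = 0.132).

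BiP, GRP94 and Hyou1 were not called by edgeR. BiP (Hspa5) stood at 274, 198 and 205 CPM in sham replicates 1 to 3 and at 315, 307, 377 and 233 CPM in imBAT replicates 1 to 4, so that sham replicate 1 lay above imBAT replicate 4. Its log2 fold change was 0.45 ± 0.18 (SE, adjusted p = 0.0733), and 0.61 without sham replicate 1 (adjusted p = 0.0352). Without imBAT replicate 3 it was 0.29 (adjusted p = 0.183) and without sham replicate 2 0.36 (adjusted p = 0.227). Voom called Hspa5 (adjusted p = 0.0281) and DESeq2 did not (adjusted p = 0.0671). GRP94 (Hsp90b1) had 228, 166 and 162 CPM and 210.5, 193, 247 and 192 CPM, with wide overlap and a log2 fold change of 0.19 ± 0.15 (SE, adjusted p = 0.348). Hsp90b1 shares 15.7% of its exon length with 1810014B01Rik, Gm15344 and Gm25745. Hyou1, the nucleotide exchange factor of BiP, had 134 ± 22.7 CPM in sham and 161 ± 24.5 CPM in imBAT (SD, n = 3 and 4; adjusted p = 0.204). Of its J-domain partners, Dnajb9, Dnajb11 and Dnajc3 were not called. Dnajb9, which keeps IRE1 inactive, had 16.4 ± 0.948 CPM in sham and 19.7 ± 5.24 CPM in imBAT (adjusted p = 0.336, and 0.0370 without imBAT replicate 2, which alone lay below the sham libraries). Dnajb11 had 51.5 ± 5.68 CPM in sham and 56.7 ± 4.99 CPM in imBAT (adjusted p = 0.333) and Dnajc3 115 ± 10.6 CPM in sham and 134 ± 10.1 CPM in imBAT (adjusted p = 0.117). Under upper-quartile scaling Hsp90b1, Dnajb11 and Dnajc3 had log2 fold changes just under 0 (-0.05, -0.10 and -0.01).

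The other ER calls were Dnajc10, a J-domain protein with disulfide reductase activity (1.28-fold, adjusted p = 0.0231), the ER-membrane J-protein Dnajb14, whose J-domain faces the cytosol (1.56-fold, adjusted p = 0.00953), the HSP70-like Hspa13 (1.56-fold, adjusted p = 0.0281) and Dnajc25 (1.67-fold, adjusted p = 0.0162). The ER-membrane J-proteins Dnajb12, Dnajc14, Dnajc16 and Dnajc18 lay higher in every imBAT library than in any sham library, with log2 fold changes of 0.14 to 0.26, and none was called by edgeR. DESeq2 called Dnajc16, and voom Dnajb12, Dnajc14 and Dnajc16. Dnajc14 shares 19.9% of its exon length with Ormdl2, Sarnp and Tmem198b. Dnajc1 lay at 67.8 to 76.3 CPM in sham and 72.1 to 77.98 CPM in imBAT (log2 fold change 0.04). In all, 15 of the 23 ER members were higher in every imBAT library than in any sham library. So were 26.8% of all genes tested, and 5945 of the 16106 protein-coding genes tested. Without sham replicate 2 or without sham replicate 3 only Dnajb14, P4hb and Pdia5 were called, and under upper-quartile scaling only these and Pdia6. Of the ER members with the stress element in the window, 2 of 6 were higher (Calr and Pdia6, median log2 fold change 0.40), and of those with a window and no match, 7 of 14 were (median 0.31); the difference was not tested.

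Of the 8 mitochondrial chaperones, 5 were higher in imBAT, among them genes of protein import and of folding. Mortalin (Hspa9), the HSP70 that pulls proteins into the matrix, stood at 179.7, 144 and 151 CPM in sham replicates 1 to 3 and 267, 206, 409 and 264 CPM in imBAT replicates 1 to 4. All imBAT libraries lay above all sham libraries, imBAT replicate 3 by far the most, and Hspa9 rose by 0.86 ± 0.22 (SE, adjusted p = 0.0141). The chamber subunit Hspd1 had 101, 62.5 and 71.2 CPM and 127, 104, 214 and 110.3 CPM, with sham replicate 1 just under imBAT replicate 2, and rose by 0.83 ± 0.28 (SE, adjusted p = 0.0401). Its lid Hspe1, which shares the promoter stretch shown above, had 27.3, 19.0 and 20.2 CPM and 31.2, 27.0, 41.5 and 23.5 CPM. The groups of Hspe1 overlapped and it was called by voom but not by edgeR (log2 fold change 0.47, SE 0.21, adjusted p = 0.101); 7.6% of its exon length overlaps Hspd1 on the other strand and the strand setting of the counts is not known. For Hspd1 and Hspe1 alike, imBAT replicate 3 was the highest library and sham replicate 1 the highest of its group.

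Dnajc15, an inner-membrane J-protein of the import motor, had the largest difference in the compartment, with 23.2, 19.9 and 24.1 CPM in sham and 50.4, 37.5, 67.4 and 45.4 CPM in imBAT, and rose by 1.16 ± 0.19 (SE, adjusted p = 0.00275). Its relative in the import motor, Dnajc19, had 19.7 ± 0.636 CPM in sham and 23.0 ± 6.19 CPM in imBAT and was not called (adjusted p = 0.369). Dnaja3, the J-protein partner of mortalin, rose 1.54-fold to 51.5 to 83.4 CPM (adjusted p = 0.0177), and Dnajc30, which acts on the ATP synthase, 1.66-fold to 7.77 to 11.1 CPM (adjusted p = 0.00970). For Dnajc30, 26.2% of its exon length overlaps Bud23 on the other strand. Dnajc11, a mitochondrial membrane protein, stayed within 60.1 to 64.1 CPM in sham and 61.5 to 67.9 CPM in imBAT (adjusted p = 0.451). Without sham replicate 2 or 3 the calls of Hspa9, Hspd1 and Dnaja3 were lost (adjusted p up to 0.0570 for Hspa9 and 0.135 for Hspd1 over the libraries left out), and Dnajc15 and Dnajc30 remained called. Hspd1 was also lost without imBAT replicate 1 or 3, and without imBAT replicate 3 its log2 fold change was 0.49 (adjusted p = 0.0586). Beside these genes, imBAT replicate 3 also had the highest summed adipocyte marker level, 31774 CPM, and the lowest T and B cell levels.

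**Figure D2:**
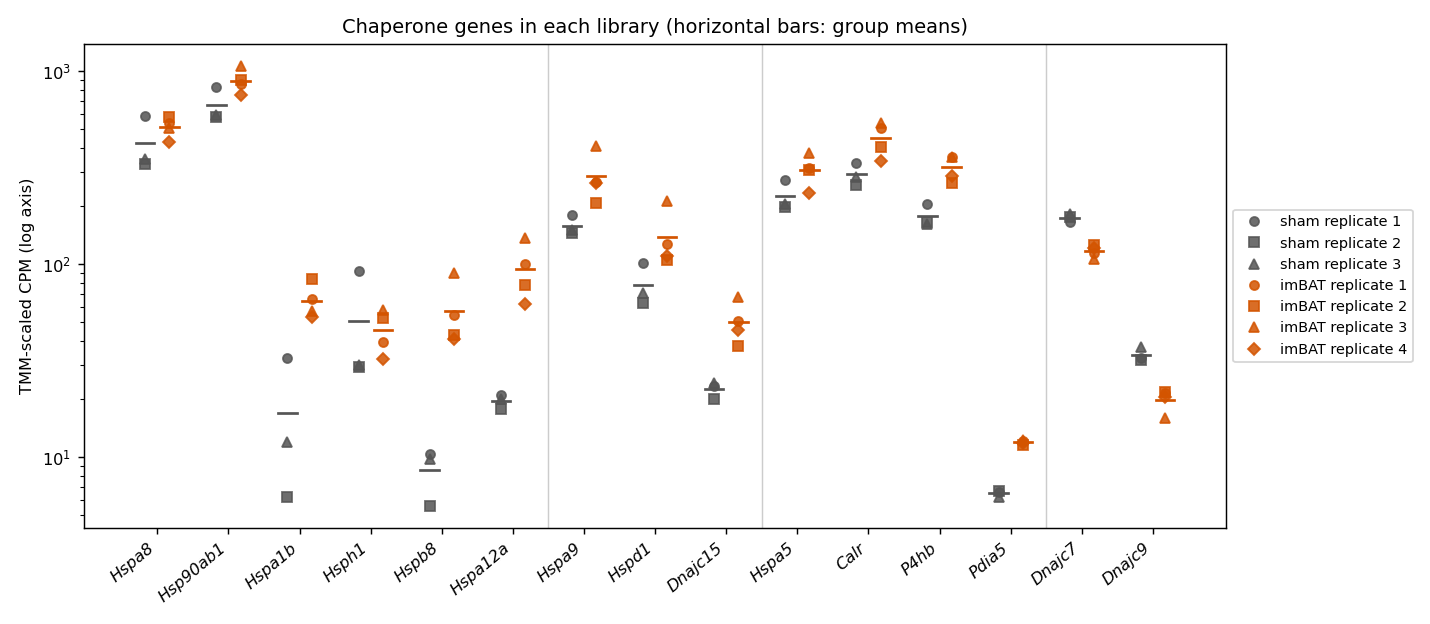
Each symbol is 1 library's TMM-scaled CPM on a log axis (sham grey, imBAT orange, replicate by symbol shape, bars for group means), with cytosolic genes, then mitochondrial, ER and finally 2 cytosolic genes that fell, set off by vertical lines. Hsph1 and Hspa1b show sham replicate 1 above the other sham libraries, and imBAT replicate 3 is highest for Hspa9 and Hspd1.

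In the cytosol, the abundant constitutive chaperones Hsp90ab1 and Hspa8 were not called by edgeR. Of the HSP90 genes 0 of 3 were called by edgeR or DESeq2, with 1 (Hsp90ab1) at an unadjusted p under 0.05 and called by voom. Per kilobase of exon, Hsp90ab1 had the highest imBAT level of the 81 members, at 299 ± 42.8 CPM per kb (SD, n = 4), followed by Calr (156 ± 31.7), Hspa8 (119.6 ± 15.2), P4hb (111 ± 16.98), Pdia3 (73.7 ± 7.91), Hspa5 (72.8 ± 13.9) and Hspa9 (66.5 ± 20.01). In that order the ranges of mean ± SD overlapped between neighbours, except between Hsp90ab1 and Calr and between P4hb and Pdia3. Hsp90ab1, the constitutive HSP90, stood at 828, 576 and 594 CPM in sham replicates 1 to 3 and 856, 903, 1065 and 757 CPM in imBAT replicates 1 to 4 (log2 fold change 0.43, SE 0.17, adjusted p = 0.0726). Hspa8, the constitutive HSP70 that also strips clathrin from vesicles, had 588, 329 and 353 CPM and 539, 582, 510.2 and 427 CPM (log2 fold change 0.28, SE 0.21, adjusted p = 0.307). Sham replicate 1 lay among the imBAT libraries for Hsp90ab1 and above all of them for Hspa8. Without it, Hsp90ab1 was higher by 0.61 (adjusted p = 0.0214) and Hspa8 by 0.60 (adjusted p = 0.0193). Hspa8 was at 0.13 without sham replicate 2 (adjusted p = 0.692) and 0.17 without sham replicate 3 (adjusted p = 0.616), and Hsp90ab1 at 0.28 without imBAT replicate 3 (adjusted p = 0.169). The exchange factor Hspa4 rose by 0.49 ± 0.15 (SE, adjusted p = 0.0270), with 175, 128 and 146 CPM in sham and 211, 245, 209 and 175 CPM in imBAT, where sham replicate 1 was just above imBAT replicate 4. Upper-quartile scaling, or leaving out any of sham replicates 2 and 3 and imBAT replicates 1 and 3, ended the call of Hspa4.

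The stress-inducible HSP70 genes Hspa1a and Hspa1b, neighbours on chromosome 17 that encode near-identical proteins and may share reads, were higher in imBAT. Hspa1b stood at 32.4, 6.21 and 11.9 CPM in sham replicates 1 to 3 and at 65.8, 83.2, 56.9 and 52.9 CPM in imBAT replicates 1 to 4, and Hspa1a at 12.8, 2.33 and 4.62 CPM and 23.6, 32.4, 20.8 and 21.5 CPM. All imBAT libraries lay above all sham libraries, while the sham libraries were spread over a wide range with replicate 1 highest. The rise was 1.94 ± 0.50 (SE, adjusted p = 0.0140) for Hspa1b and 1.90 ± 0.51 (SE, adjusted p = 0.0167) for Hspa1a. Without sham replicate 1 it was 2.84 (adjusted p = 0.00210) and 2.83 (adjusted p = 0.00233); without sham replicate 3 (1.75 and 1.71, adjusted p = 0.0562 and 0.0647) and with no expression filter (adjusted p = 0.0776 and 0.0757) neither was called. The 2 genes summed to 45.2, 8.54 and 16.5 CPM in sham and to 89.4, 115.7, 77.7 and 74.4 CPM in imBAT. Hspa1a shares 19.0% of its exon length with Gm20481 on the other strand. The immediate early genes, which respond to handling of tissue, moved beside them, with 5 of 8 called higher and a summed level of 334 to 384 CPM in sham and 454 to 1218 CPM in imBAT, though that list was highest in imBAT replicate 4 and Hspa1a and Hspa1b in imBAT replicate 2. All 7 mammary epithelium markers were also higher, with a summed level of 106 to 384 CPM in sham and 724 to 1424 CPM in imBAT. That level, like Hspa1a and Hspa1b, was highest in replicate 1 and lowest in replicate 2 of sham, and highest in imBAT replicate 2. The part of handling and of mammary tissue in the result was not tested.

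Hsph1, Dnajb1, Hsp90aa1 and Dnaja1, also heat-inducible, were not called. Hsph1, the HSP110 exchange factor, had 92.3, 29.4 and 29.9 CPM in sham and 39.3, 52.5, 57.5 and 32.1 CPM in imBAT, so that sham replicate 1 exceeded all other libraries. Its log2 fold change was -0.16 ± 0.41 (SE, adjusted p = 0.779), and 0.61 (adjusted p = 0.0697) without that library. Dnajb1, the main J-domain partner of inducible HSP70, had 66.9, 41.3 and 38.8 CPM and 43.8, 45.8, 38.4 and 43.5 CPM (log2 fold change -0.19, SE 0.19, adjusted p = 0.426, and 0.10 without sham replicate 1, adjusted p = 0.503). Hsp90aa1, the inducible HSP90, had 137, 82.0 and 85.6 CPM and 106, 113, 154 and 87.2 CPM (log2 fold change 0.18, SE 0.23, adjusted p = 0.561), and Dnaja1 137, 77.0 and 73.0 CPM and 101, 97.5, 112 and 84.3 CPM (log2 fold change 0.05, SE 0.22, adjusted p = 0.873). Without sham replicate 1 Dnaja1 was called at 0.40 (adjusted p = 0.0455) and Hsp90aa1 was not, at 0.46 (adjusted p = 0.122).

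Sham replicate 1 exceeded the mean of the other sham libraries by more than 1.5-fold in 13 of the 78 tested members (16.7%), against 11.1% of all genes tested; 11 of the 13 are cytosolic. The largest such ratios were 3.68-fold for Hspa1a, 3.58-fold for Hspa1b, 3.11-fold for Hsph1, 2.40-fold for Dnajb3 and 2.21-fold for Hspb1, followed by Hspb9, Dnaja1 (1.82-fold), Hspa8 (1.73-fold), Dnajb1 (1.67-fold), Hsp90aa1 (1.64-fold), Dnajb13, Pdia6 and Hspd1. In the same library the HSP90 co-chaperones Fkbp4 and Stip1 were 1.70-fold and 1.60-fold the mean of the other sham libraries, and the median ratio of the mammary epithelium markers was 2.29 and that of the immediate early genes 0.78. The median ratio was 1.57 for plasma cell markers (4 of 7 over 1.5), 1.49 for cell cycle markers (3 of 6 over 1.5), 0.82 for T cell and 1.14 for B cell markers.

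**Figure D3:**
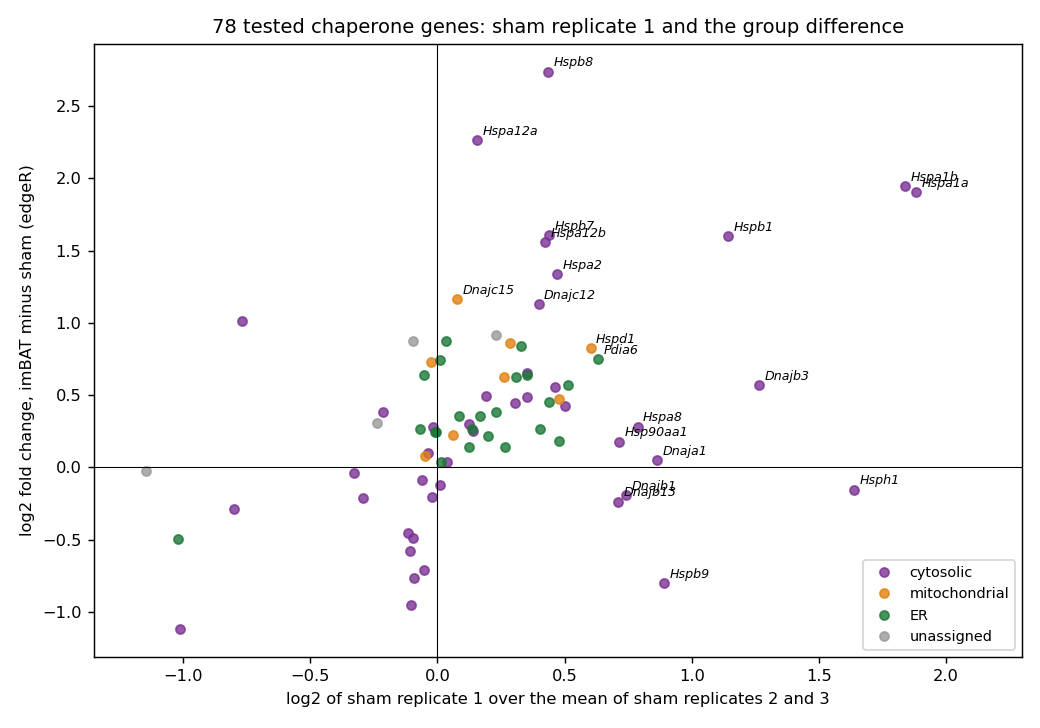
Each point is 1 of the 78 tested members, coloured by compartment; the x axis is the log2 ratio of sham replicate 1 to the mean of the other sham libraries and the y axis the log2 fold change of imBAT over sham. Hsph1 lies far right at a fold change near 0, Hspa1a and Hspa1b far right and high, and Hspb8 and Hspa12a high at smaller ratios of sham replicate 1.

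The small heat shock proteins held the largest rise of the whole set. Hspb8, which works with BAG3 in clearing damaged proteins by autophagy, stood at 10.3, 5.56 and 9.73 CPM in sham replicates 1 to 3 and 54.4, 42.9, 90.0 and 40.7 CPM in imBAT replicates 1 to 4. The lowest imBAT library was far above the highest sham library, and Hspb8 rose 6.67-fold, by 2.74 ± 0.34 (SE, adjusted p = 0.00125) on the log2 scale. Its partner Bag3 rose 2.12-fold (26.0 to 42.2 CPM in sham, 60.3 to 83.7 CPM in imBAT, adjusted p = 0.00281). Hspb1, HSP27 of humans and HSP25 of mice by its older names, had 20.6, 7.31 and 11.4 CPM and 31.0, 45.7, 47.3 and 34.3 CPM and rose by 1.60 ± 0.33 (SE, adjusted p = 0.00645); leaving out sham replicate 1 gave 2.09. Hspb7, a gene best known from heart muscle, was low, at 1.33, 1.08 and 0.874 CPM and 2.58, 4.17, 2.48 and 4.10 CPM, and rose by 1.61 ± 0.29 (SE, adjusted p = 0.00367). Hspb6, a small heat shock protein of muscle, had 8.09 ± 0.735 CPM in sham and 10.5 ± 1.72 CPM in imBAT and was not called (log2 fold change 0.38, SE 0.17, adjusted p = 0.103), nor were Hspb2 (0.111 to 0.241 CPM and 0.0738 to 0.479 CPM) and the testis gene Hspb9 (0.944 to 2.19 CPM and 0.671 to 1.096 CPM). For Hspb2, 30.2% of the exon length overlaps its neighbour Cryab on the other strand. Beside Hspb7, 5 of 7 tested skeletal muscle markers were called higher and Mylpf lower, with a summed level of 11.1 to 17.4 CPM in sham and 13.9 to 99.5 CPM in imBAT (Tnnc2 was at 0 in 6 of 7 libraries), and 5 of 6 smooth muscle and pericyte markers were higher (318 to 445 CPM in sham and 632 to 1096 CPM in imBAT). Hspb7 was highest in imBAT replicates 2 and 4. The skeletal muscle level was highest in imBAT replicates 1 and 3, and the smooth muscle and pericyte level in imBAT replicates 2 and 3. The part of these cells was not tested.

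Less studied members of the HSP70 family also rose. Hspa12a, a distant HSP70 relative, stood at 21.02, 17.7 and 19.95 CPM in sham and 99.7, 77.9, 137 and 62.0 CPM in imBAT, a rise of 2.27 ± 0.26 (SE, adjusted p = 0.00103). Its paralog Hspa12b, known from endothelium, had 25.2, 17.8 and 19.8 CPM and 47.2, 78.8, 69.6 and 51.5 CPM and rose by 1.56 ± 0.21 (SE, adjusted p = 0.00148). The groups were far apart for both, but the libraries ranked differently: Hspa12a was highest in imBAT replicate 3 and Hspa12b in imBAT replicate 2. Beside Hspa12b, 5 of 6 endothelial markers were called higher, with a summed level of 336 to 459 CPM in sham and 657 to 878 CPM in imBAT. That level was close in imBAT replicates 2, 3 and 4 (878, 859 and 841 CPM). The part of endothelial cells was not tested. Hspa2, known from testis, rose 2.53-fold (4.30 to 6.65 CPM in sham, 9.96 to 15.7 CPM in imBAT, adjusted p = 0.00274). The J-protein Dnajc12, the partner of aromatic amino acid hydroxylases, rose 2.19-fold (2.11 to 3.60 CPM in sham, 5.62 to 8.21 CPM in imBAT, adjusted p = 0.00758). These 4 genes, Hspb8, Hspb1 and Hspb7 were called under every alternative run: other scalings, filters and tools, the block, and each library left out. The remaining HSP70 members were not called, with log2 fold changes of 0.45 for Hspa4l, -0.12 for Hspa14 and -0.29 for Hspa1l. Hspa1l had 8 to 31 counts per library and shares 71.9% of its exon length with Gm10501 on the other strand.

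The 4 members called lower by edgeR were all cytosolic J-proteins of the DNAJC class. Dnajc6, auxilin, which brings HSP70 to clathrin coats, went from 19.0, 22.0 and 18.8 CPM in sham to 9.79, 12.9, 5.80 and 12.7 CPM in imBAT (log2 fold change -0.95, SE 0.25, adjusted p = 0.0167), and its call was lost without sham replicate 2. Dnajc9, a histone chaperone of the nucleus, fell 1.70-fold, from 32.4, 31.7 and 37.3 CPM to 21.5, 21.7, 15.9 and 20.3 CPM (adjusted p = 0.00316). Dnajc7, which carries clients between HSP70 and HSP90, fell 1.49-fold, from 166, 175 and 182 CPM to 114, 126, 106 and 121 CPM (adjusted p = 0.00261), and shares 9.1% of its exon length with Cnp and Nkiras2. Dnajc2, which sits at the ribosome exit, fell 1.40-fold (37.6 to 40.8 CPM in sham, 25.5 to 30.7 CPM in imBAT, adjusted p = 0.00511). All 4 imBAT libraries lay below all 3 sham libraries for each, with imBAT replicate 3 the lowest; 25.2% of all genes tested were separated in that direction. T and B cell markers fell beside them and were lowest in imBAT replicate 3 (153 and 246 CPM summed), and all 6 cell cycle markers fell (197 to 321 CPM in sham and 70.9 to 119 CPM in imBAT), again lowest in imBAT replicate 3. The part of lymphocytes and dividing cells in these falls was not tested.

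Among the other cytosolic J-proteins, Dnajb2 (1.57-fold, adjusted p = 0.00540), Dnajb4 (1.47-fold, 0.0154), Dnaja4 (1.41-fold, 0.0172) and Dnaja2 (1.23-fold, 0.0449) were higher. Dnaja2, closest to the threshold, was lost under 9 of the 15 alternatives, and Dnaja4 shares 44.1% of its exon length with Wdr61 on the other strand. Dnajb6, Dnajb5, Dnajc5, Dnajc8, Dnajc13, Dnajc17, Dnajc21, Dnajc24 and Dnajc27 were not called by edgeR, with log2 fold changes between -0.46 and 0.28. Dnajc5 lay lower, and Dnajb6 and Dnajc24 higher, in every imBAT library than in any sham library. DESeq2 called Dnajc5 lower, and voom called Dnajc5 and Dnajc17 lower and Dnajb6 higher. Dnajb3, Dnajb7, Dnajb8 and Dnajb13, best known from testis or ciliated cells, were not called by edgeR either (log2 fold changes -1.12 to 0.57). Dnajb7 lay lower in every imBAT library than in any sham library and was called lower by DESeq2 and voom. Dnajb13 shares 11.2% of its exon length with Ucp2. Of the unassigned genes, Hspb11 (0.30) and Dnajc22 (-0.02) were not called. Hspb3, Dnajc5b and Dnajc5g, with 0 to 7 counts in any library, did not pass the filter.

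To compare chaperones without any scaling, log2 ratios of counts were taken within each library for 6 pairs. Hspa1b to Hspa8 and Hsp90aa1 to Hsp90ab1 set an inducible against a constitutive form, both cytosolic. The other pairs set relatives in different compartments against each other. An exact 2-sided permutation test over the 7 libraries was applied (35 arrangements), with adjustment over the 6 pairs (smallest possible p = 0.0286). The ratio of Hspa1b to Hspa8 differed most, at -4.18, -5.73 and -4.89 in sham and -3.03, -2.81, -3.16 and -3.01 in imBAT, a difference of 1.93 with no overlap (exact p = 0.0286, adjusted p = 0.171). The ratio of the ER form Hsp90b1 to the cytosolic Hsp90ab1 was -1.86, -1.80 and -1.88 in sham and -2.02, -2.23, -2.11 and -1.98 in imBAT, also with no overlap, a difference of -0.24 (exact p = 0.0571, adjusted p = 0.171). Mortalin to Hspa8 differed by 0.50 (exact p = 0.200, adjusted 0.240), and BiP to mortalin by -0.37 (exact p = 0.171, adjusted 0.240). BiP to Hspa8 differed by 0.12 (exact p = 0.514, adjusted 0.514) and Hsp90aa1 to Hsp90ab1 by -0.25 (exact p = 0.114, adjusted 0.229). No pair passed after adjustment. With the smallest p of 0.0286 and 6 pairs, 1 pair alone could not go under 0.171, so the separated Hspa1b to Hspa8 ratio could not have passed unless at least 4 pairs reached that smallest p. A p that misses the threshold does not show that the ratios were alike.

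**Figure D4:**
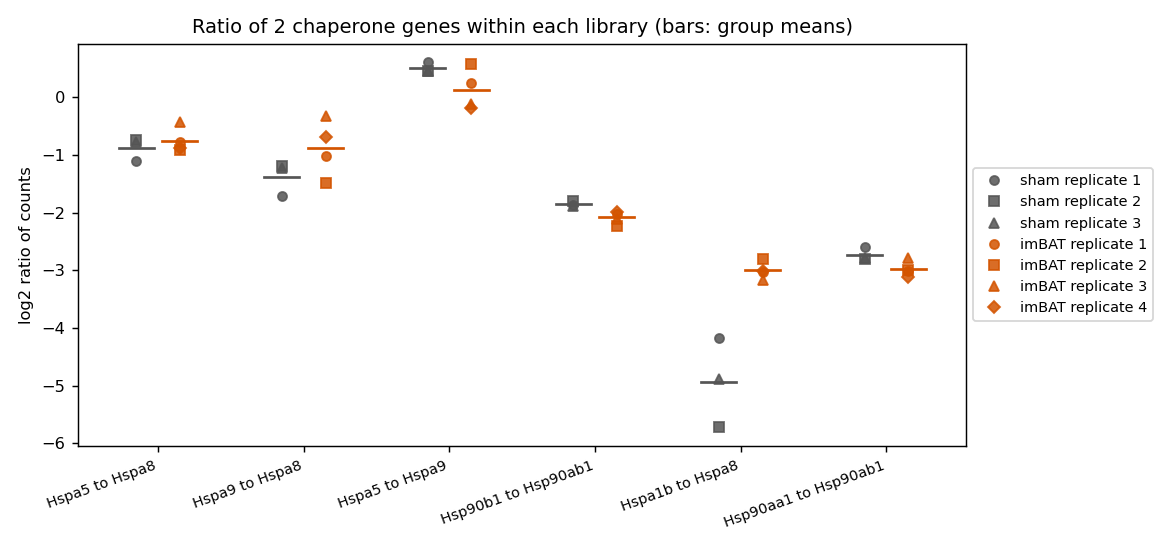
Each symbol is the log2 ratio of the counts of 2 genes within 1 library (sham grey, imBAT orange, bars for group means) for 6 pairs of chaperones. The groups are apart for Hspa1b to Hspa8 and for Hsp90b1 to Hsp90ab1 and overlap for the other 4 pairs.

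For other genes of the same pathways, each count is to be read beside the 24.3% higher and 19.3% lower among all genes tested. Among protein-coding genes tested the shares were 34.2% and 19.7%. Of 24 cytosolic co-chaperones and heat shock factors, 12 were higher (50%) and 1 lower (Hspbap1), with a median log2 fold change of 0.36. Bag1, an HSP70 exchange factor, rose 2.17-fold (42.6 to 48.0 CPM in sham, 86.0 to 135 CPM in imBAT, adjusted p = 0.00227) and Sgta, which hands over tail-anchored membrane proteins, 2.26-fold (54.8 to 74.8 CPM in sham, 114 to 181 CPM in imBAT, adjusted p = 0.00243). The heat shock factor Hsf1 itself stood at 83.2 to 84.5 CPM in sham and 65.2 to 79.6 CPM in imBAT (log2 fold change -0.22, adjusted p = 0.0883). None of the 8 subunits of the TRiC chaperonin, the cytosolic folding chamber for actin and tubulin, was called, with log2 fold changes of -0.02 to 0.18. None of the 8 had an unadjusted edgeR p under 0.05 or was called by DESeq2 or voom. Cct6a, Tcp1 and Cct7, the 3 with the smallest p, had adjusted p = 0.245, 0.318 and 0.361 and lay below 0 under upper-quartile scaling.

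Of 13 sensors and factors of the unfolded protein response, 3 were higher (23.1%, near the share of all genes) and 0 lower (0 lower also at an unadjusted p under 0.05, by DESeq2 and by voom). Every imBAT library lay above every sham library for 7 of the 13 and below for 0. Over all genes tested 26.8% were separated higher. Xbp1, the factor spliced by IRE1, rose 1.65-fold (87.6 to 129 CPM in sham, 139.6 to 198 CPM in imBAT, adjusted p = 0.00931); these counts do not separate its spliced form. Creb3l1 and Creb3l2, membrane-bound factors of secretory cells, rose 5.26-fold (adjusted p = 0.00355) and 1.89-fold (adjusted p = 0.00234), while Ddit3, the pro-death factor CHOP, stood at 11.3 to 14.8 CPM and 10.6 to 15.3 CPM (log2 fold change 0.02, adjusted p = 0.917) and Atf4 at 73.6 to 88.5 CPM and 89.6 to 103 CPM (adjusted p = 0.0613). Of 23 tested ER folding partners and degradation genes, 6 were higher (26.1%, also near that share) and 1 lower, with a median of 0.15. The collagen chaperone Serpinh1 rose 5.62-fold (48.2 to 91.4 CPM in sham, 170.4 to 655 CPM in imBAT, adjusted p = 0.00372) and the collagen-associated isomerase Fkbp10 2.04-fold (adjusted p = 0.00235), beside fibroblast markers that rose from a summed 928 to 7822 CPM. Sel1l, of the retrotranslocation complex, rose 1.51-fold (adjusted p = 0.00350), and the oxidase Ero1lb, which reoxidises disulfide isomerases, fell 2.12-fold (58.0 to 63.5 CPM in sham, 23.6 to 32.2 CPM in imBAT, adjusted p = 0.000937). Of 7 plasma cell markers 1 (Sdc1) was higher and 1 (Mzb1) lower, with a summed level of 174 to 384 CPM in sham and 162 to 332 CPM in imBAT.

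Of 14 mitochondrial co-chaperones and proteases, 8 were higher (57.1%) and 1 lower (Grpel2), with a median of 0.42. The protease subunit Clpp rose 1.94-fold (18.9 to 22.9 CPM in sham, 32.6 to 49.3 CPM in imBAT, adjusted p = 0.00309), the protease Lonp1 1.66-fold (adjusted p = 0.00395), and Atf5, a factor of the mitochondrial stress response, 2.99-fold (26.8 to 45.4 CPM in sham, 77.0 to 160.4 CPM in imBAT, adjusted p = 0.00445). Trap1, the mitochondrial HSP90, rose 1.66-fold (adjusted p = 0.0101). Of the exchange factors of mortalin, Grpel1 was 1.53-fold higher (adjusted p = 0.0176) and Grpel2 1.32-fold lower (adjusted p = 0.0164). imBAT replicate 3 was the highest library for Clpp, Lonp1, Atf5, Trap1 and Grpel1 and the lowest for Grpel2, as it was the highest for Hspa9 and Hspd1.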

How the data were processed

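RNA-seq of 3 sham and 4 imBAT libraries of mouse inguinal white adipose tissue was used. The authors deposited raw counts per gene in 1 table; STAR 2.7.9a and featureCounts 2.0.3 are named per the submitters' processing notes, while the strand setting was not given in the sources used here. Of 55774 rows, 287 repeated rows with identical counts were dropped. Genes passing filterByExpr (minimum count 10; 26393 genes) were tested with edgeR 4.0.16 (TMM scaling, robust quasi-likelihood F test, Benjamini-Hochberg over all genes tested, called under 0.05) in R 4.3.3. SEs are the absolute log2 fold change over the root of F. CPM were divided by merged exon length (GENCODE M21, GRCm38) for levels per kb.

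The members and lists were chosen with earlier results of these data known. Compartments follow general knowledge of protein location. The genes named are 28 fixed by name, members called by at least 1 on the log2 scale and the 3 genes with the smallest p of each pathway list; other genes printed were chosen after their values were seen. Replicate numbers in the sample titles were not used to pair the libraries in the main test. Correlations of same-numbered deviations were 0.10, 0.11 and -0.01, against -0.143 to 0.04 for libraries with different numbers. These few values cannot tell whether the numbers mark pairs. Within groups, libraries differed by more than counting noise, so none was merged. The tests were tried on simulated data in which far fewer genes changed than were called here. Of genes set to change by 1 on the log2 scale, edgeR recovered 32.6%, DESeq2 47.4% and voom 33.7%. For a change of 2 the shares were 68.1%, 86.2% and 68.1%. False calls were 8 of 103 for edgeR, 58 of 184 for DESeq2 and 5 of 101 for voom. In that simulation real changes were missed, and DESeq2 made the most false calls. These shares need not hold for the data here, where far more genes were called. Real changes could still be missed here. Alternatives were other scalings, filters and tools (DESeq2 1.42.0, limma 3.58.1 voom), a replicate block, a threshold of 0.10 and leaving out each library.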

Additional observations from a re-analysis of the deposited data

How the results depend on the processing

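Under upper-quartile scaling 19 members were called higher and 11 lower, of which 11 lower were cytosolic, 3 higher were mitochondrial and 4 higher were ER members. That scaling also put Hsp90b1 (-0.05), Dnajb11 (-0.10), Dnajc3 (-0.015), Hsp90aa1 (-0.054), Dnaja1 (-0.18), Cct6a (-0.059), Tcp1 (-0.083) and Cct7 (-0.10) below 0 on the log2 scale. Voom called 7 members lower, all 7 cytosolic, and had Hsph1 at 0.21 and Dnajb1 at 0.023. At an adjusted p under 0.10, 8 members were lower, all 8 cytosolic. With each library left out in turn, 7519 to 11403 genes were called; members called higher numbered 15 to 37, cytosolic 8 to 16, mitochondrial 2 to 5 and ER 3 to 15. The log2 fold change then ranged from -0.43 to 0.61 for Hsph1, -0.33 to 0.10 for Dnajb1, -0.11 to 0.40 for Dnaja1 and -0.045 to 0.46 for Hsp90aa1. The cause of these changes was not tested. With the title number as a replicate block over the 7 libraries, which rests on a shared number only, 10853 genes, 33 members higher and 5 lower were called. Hspa5 was among those called higher (adjusted p = 0.0274). For the 3 same-numbered pairs alone, without imBAT replicate 2, the difference in the ratio of Hspa1b to Hspa8 was 1.86. With a library left out, the permutation test of the ratios could not reach 0.05. The low counts of Hspa1l, Hspb2 and Dnajb8 limit what could be called for them.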
